A study of Mus musculus with 6 samples.

Results

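The Ly6 genes of mouse chromosome 15 were examined in osteoclast precursors from 6 mice. The members were given by symbol, as *Ly6a*, *Ly6c1*, *Ly6c2*, *Ly6d*, *Ly6e*, *Ly6g* and *Ly6i*, and 6 of the 7 symbols were analysed among the 24346 gene symbols of the tables. *Ly6g* was not analysed here. The family was selected on the measured JAK inhibitor minus vehicle difference of these same mice, with *Ly6a* set against the monocyte gene *Ly6c2*. The differences of the members are therefore given as a description, and nothing is read from a test of them.

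RNA-Seq was performed on EGFP+ cells sorted from the calvarial bone marrow of CX3CR1-EGFP knock-in mice. All 6 mice had lipopolysaccharide (LPS), a bacterial product that triggers inflammation, injected at 20 mg/kg into the membrane that covers the skull bone. This is the study's model of inflammatory bone destruction. The JAKi group (n = 3) received the JAK inhibitor ABT-317 by mouth at 60 mg/kg, 2 doses per day for 5 days, and the vehicle group (n = 3) received the carrier alone. The study describes ABT-317 as a selective inhibitor of JAK1. JAK1 is one of the kinases that pass signals from interferon and many other cytokine receptors to STAT transcription factors, and the comparison asks how blocking it alters the transcripts of these precursors. The reporter is driven by the *Cx3cr1* locus, so the gate collects any marrow cell in which that promoter is active, with no second surface marker named in the methods, and no mice without LPS were sequenced. The age and the reporter zygosity of these mice are not given in the sources used here. The replicate numbers label different mice. Each p-value below comes from limma, which sets the group difference against a spread between mice that also draws on other genes.

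Ly6 proteins are small surface proteins with a compact disulfide-bonded fold, most of them tied to the membrane by a glycosylphosphatidylinositol (GPI) anchor. Ly6C, encoded by *Ly6c1* and *Ly6c2*, is the antigen by which classical monocytes are sorted. Sca-1, encoded by *Ly6a*, is used to sort blood stem cells and is also known to be raised by interferons in many blood cells. *Ly6e* encodes a broadly expressed member, *Ly6d* is a marker of B-lineage and plasmacytoid dendritic cell precursors, *Ly6g* encodes a neutrophil antigen, and *Ly6i* is a close relative of *Ly6a*.

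The opening of the coding sequence is printed for the 4 most alike members, since their likeness sets how far short reads can tell them apart. The first 60 coding bases were read from the GENCODE M21 transcripts, and capitals mark bases that differ from *Ly6c2*.
Ly6c2: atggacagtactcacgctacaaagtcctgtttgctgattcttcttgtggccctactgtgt
Ly6c1: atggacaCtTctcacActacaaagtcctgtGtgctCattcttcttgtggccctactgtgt
Ly6a: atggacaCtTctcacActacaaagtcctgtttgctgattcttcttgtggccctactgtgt
Ly6i: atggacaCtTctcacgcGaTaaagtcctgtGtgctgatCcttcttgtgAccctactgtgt
*Ly6a* differed from *Ly6c2* at 3 of these 60 bases, *Ly6c1* at 5 and *Ly6i* at 7. Over the whole coding sequence, *Ly6c1* and *Ly6c2* shared 97.7% of aligned bases, *Ly6a* and *Ly6i* 86.3%, and the other pairs among these 4 genes 81.6% to 81.8%. *Ly6d* and *Ly6e* stood apart, at 49.2% to 53.4% to any other member. The reads were 75 bases long, and 23.2% of the 770 windows of that length in the *Ly6c1* transcript also occur unchanged in another gene, namely *Ly6a* or *Ly6c2*. The share was 21.9% of 748 windows for *Ly6c2*, all shared with *Ly6c1*. It was 0.805% for *Ly6a* and 0.555% for *Ly6i*, and no window of *Ly6d* or *Ly6e* was shared. Each share is for 1 transcript of the gene, searched for exact matches in all transcripts of other genes. The *Ly6a* transcript used here shared windows with *Ly6i* only, so the windows that *Ly6c1* shares with *Ly6a* lie in another *Ly6a* transcript. The share of *Ly6a* therefore does not cover all of its overlap. A read from a shared window cannot be placed on one gene, so the split between *Ly6c1* and *Ly6c2* is uncertain. By FPKM, *Ly6c1* averaged 0.624% of *Ly6c2* with JAKi and 1.01% with vehicle.

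In GRCm38 (GENCODE M21), the 6 genes lie within 350 kb of chromosome 15. *Ly6d* (74762056 to 74763620, minus strand) is the outermost on the low side. *Ly6e* (74955051 to 74959905, plus strand) is the only one on the plus strand. *Ly6i* (74979534 to 74983430) and *Ly6a* (74994877 to 74998031) are next to each other on the minus strand, with 11.4 kb between them. *Ly6c1* (75044018 to 75048830, minus strand) and *Ly6c2* (75108158 to 75111970, minus strand) follow. GENCODE lists 17 other genes between the outermost members, of which 7 had values here. Only *Ly6k*, another Ly6 gene, reached an FPKM of 1 in any mouse, and the highest value among the rest was 0.394 FPKM.

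Of the 6 genes, 2 were matched by symbol to the RefSeq promoter table, the *Ly6c1* and *Ly6c2* pair, and *Ly6a*, *Ly6d*, *Ly6e* and *Ly6i* were not matched. The pair is shown because it is nearly the same in its coding part but not in its levels. The 250 bases before each start are printed 5′ to 3′ on the minus strand of GRCm38.p6, at chr15:75048838-75049087 for *Ly6c1* and chr15:75111972-75112221 for *Ly6c2*. Capitals mark bases that have no identical partner in the alignment of the pair.
Ly6c1: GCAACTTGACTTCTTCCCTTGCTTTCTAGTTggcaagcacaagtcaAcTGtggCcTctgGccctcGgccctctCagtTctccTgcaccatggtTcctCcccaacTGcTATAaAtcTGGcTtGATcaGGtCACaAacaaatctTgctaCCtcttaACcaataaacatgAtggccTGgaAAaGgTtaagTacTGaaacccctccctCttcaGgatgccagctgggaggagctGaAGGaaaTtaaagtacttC
Ly6c2: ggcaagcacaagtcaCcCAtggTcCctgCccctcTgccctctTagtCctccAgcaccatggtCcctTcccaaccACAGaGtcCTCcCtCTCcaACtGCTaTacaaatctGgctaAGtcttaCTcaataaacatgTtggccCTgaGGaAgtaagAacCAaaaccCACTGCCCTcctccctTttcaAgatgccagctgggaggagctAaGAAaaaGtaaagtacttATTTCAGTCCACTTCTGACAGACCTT
Of 216 aligned bases, 164 were identical (75.9%), a lower share than in the coding sequence. Both strands were searched for the letters of the STAT-bound GAS element (TTCNNNGAA) and of the interferon-stimulated response element (GAAANNGAAA). Neither promoter held either motif, against 7.04% of 32544 RefSeq promoter windows of the same length for the first and 2.98% for the second. No match says only that these letters are not in this window.

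Expression is given as the deposited FPKM, fragments scaled by transcript length and mapped library size, which allows levels to be compared between genes. The FPKM of a library summed to between 688372 and 775790. Read counts were not used here, the absolute depth is unknown, and the pattern of low values put the libraries within 0.24 of each other on the log2 scale as a rough guide. The label of the cells was checked against markers. *Lyz2*, a lysozyme of myeloid cells, had 29700 ± 5000 FPKM (SD, n = 3) with JAKi and 29400 ± 4170 (SD, n = 3) with vehicle. All 12 classical monocyte markers reached an FPKM of 1 in some mouse. All 12 neutrophil and all 10 non-classical monocyte markers did too, so this does not set these cell types apart. *Cx3cr1*, the locus of the reporter, ranged from 15.5 to 36.1 FPKM, lowest in vehicle mouse 3. Genes of the neutrophil list were also abundant, with *S100a8*, *Mpo* and *Elane* among the highest. The summed FPKM of the 12 neutrophil markers was 17300 to 24500 with JAKi and 17200 to 23400 with vehicle. Others of this list were far lower, with *Cxcr2* averaging 4.03 FPKM with JAKi and 7.94 with vehicle, and *Mmp9* 9.91 and 34.4. The B-cell genes *Ms4a1*, *Pax5* and *Ebf1* were listed at 0 in every mouse. The EGFP+ cells therefore carried a myeloid profile, with abundant genes from both the monocyte and the neutrophil lists. Which cells carried the abundant neutrophil-list genes was not tested. These are bulk samples, in which fewer cells of a type and less RNA per cell cannot be told apart.

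The members spanned a wide range of levels. In vehicle-treated mice the order of mean FPKM was *Ly6c2* (3940 ± 1040, SD, n = 3), *Ly6e* (1250 ± 248), *Ly6i* (64.8 ± 22.2), *Ly6d* (63.4 ± 50.3), *Ly6c1* (43.3 ± 28.6) and *Ly6a* (27.9 ± 11.6). *Ly6c2* and *Ly6e* stood at percentiles 99.9 and 99.3 of the tested genes. The neighbours in this order from *Ly6i* down overlapped in their values per mouse, so their order did not exceed the spread, although *Ly6i* was above *Ly6a* in every mouse. In JAKi-treated mice the order was *Ly6c2* (4350 ± 236, SD, n = 3), *Ly6e* (1360 ± 66.5), *Ly6d* (72.5 ± 7.17), *Ly6i* (28.3 ± 0.99), *Ly6c1* (27.5 ± 25.0) and *Ly6a* (5.10 ± 1.66). Here *Ly6d* was above *Ly6i* in every mouse and *Ly6a* was below all the others in every mouse, while *Ly6i* and *Ly6c1* overlapped.

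**Figure D1:**
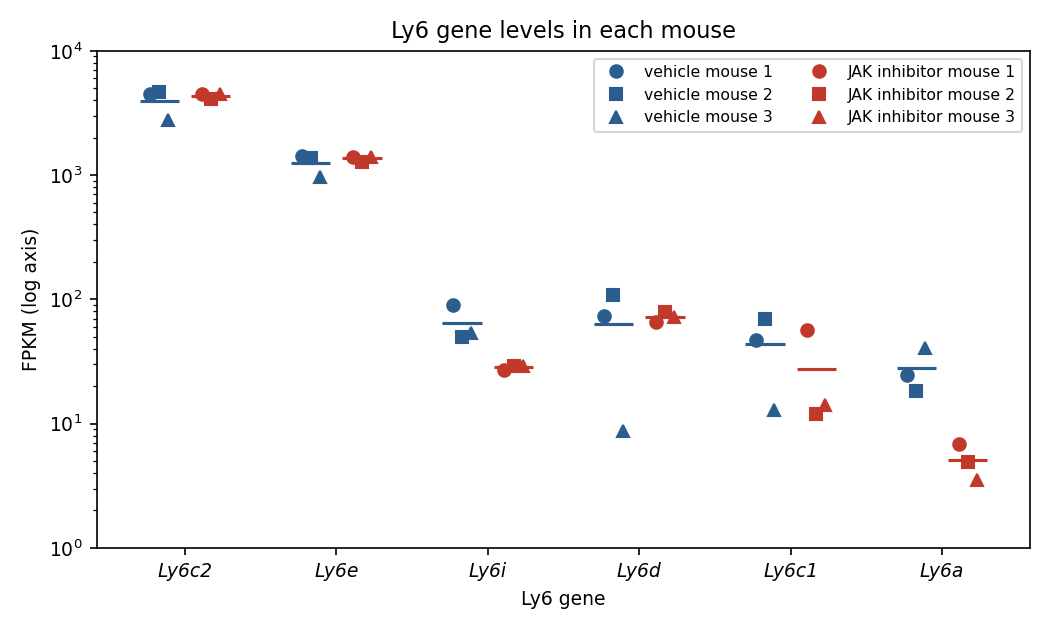
FPKM on a log axis of the 6 Ly6 genes in each mouse, with vehicle in blue and JAK inhibitor in red; the symbol gives the mouse number and the bar the group mean (n = 3). The JAKi values of *Ly6a* (3.52 to 6.83) and *Ly6i* (27.17 to 28.95) lie below all vehicle values, and vehicle mouse 3 is the lowest of all mice for *Ly6c2*, *Ly6e* and *Ly6d*.

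*Ly6a* (Sca-1) had 6.83, 4.95 and 3.52 FPKM in JAKi mice 1 to 3, and 24.6, 18.3 and 40.7 FPKM in vehicle mice 1 to 3. All 3 JAKi mice lay below all 3 vehicle mice. The vehicle mean was 5.47 times the JAKi mean, and the difference was -2.205 on the log2(FPKM + 1) scale (limma standard error 0.29, JAKi minus vehicle). Counted from the most negative difference, it was number 18 of the 11301 tested genes. *Ly6a* was among the genes lower with JAKi at an adjusted p under 0.05 in limma, a group that holds 0.0973% of the tested genes, but the gene was chosen by this contrast and nothing is read from that call. Vehicle mouse 3 was the highest, and without it the log2 difference was -1.90. The call was lost without JAKi mouse 1, 2 or 3 or vehicle mouse 1, while the difference stayed between -2.46 and -1.90.

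*Ly6i*, the gene beside *Ly6a*, had 27.17, 28.95 and 28.80 FPKM with JAKi and 90.33, 50.01 and 54.00 FPKM with vehicle. The groups did not overlap, and the JAKi mice were close to each other while vehicle mouse 1 stood above the other vehicle mice. The vehicle mean was 2.29 times the JAKi mean, with a log2 difference of -1.12 (standard error 0.20). *Ly6a* and *Ly6i* were thus 2 of the 6 members whose JAKi values lay wholly below vehicle, 12.1% of all tested genes doing the same, and no member lay wholly above. Since the rule used this contrast, nothing is read from the count.

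*Ly6c2*, the Ly6C antigen of classical monocytes, had 4475, 4076 and 4494 FPKM with JAKi and 4463, 4617 and 2751 FPKM with vehicle. The groups overlapped, and only vehicle mouse 3 fell outside the range of the others. The log2 difference was 0.18 (standard error 0.18), and it was -0.06 without vehicle mouse 3. *Ly6c1*, its near copy, had 56.37, 12.01 and 14.22 FPKM with JAKi and 47.5, 69.5 and 12.9 FPKM with vehicle. JAKi mouse 1, vehicle mouse 1 and vehicle mouse 2 were high and the other 3 mice were low, so the split ran across the groups. The log2 difference of *Ly6c1* was -0.69 (standard error 0.66), and leaving out single mice moved it from -1.38 without vehicle mouse 3 to -0.21 without vehicle mouse 2.

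*Ly6e* had 1392, 1284 and 1405 FPKM with JAKi and 1413, 1367 and 962 FPKM with vehicle, a log2 difference of 0.14 (standard error 0.14) that was -0.03 without vehicle mouse 3. Like *Ly6c2*, it was lowest in vehicle mouse 3 and overlapped elsewhere. *Ly6d* had 65.2, 79.6 and 72.7 FPKM with JAKi and 73.5, 108 and 8.77 FPKM with vehicle. Vehicle mouse 3 was far below the rest, the mean of vehicle mice 1 and 2 being 10.3 times its value. The log2 difference of *Ly6d* was 0.77 (standard error 0.73), and from -0.30 without that mouse to 1.44 without vehicle mouse 2. The direction of *Ly6c2*, *Ly6e* and *Ly6d* therefore rested on 1 mouse, and none of these 3 genes differed between the groups beyond the spread between mice. Over the 6 members, the median log2 difference was -0.27, against -0.004 over all tested genes.

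**Figure D2:**
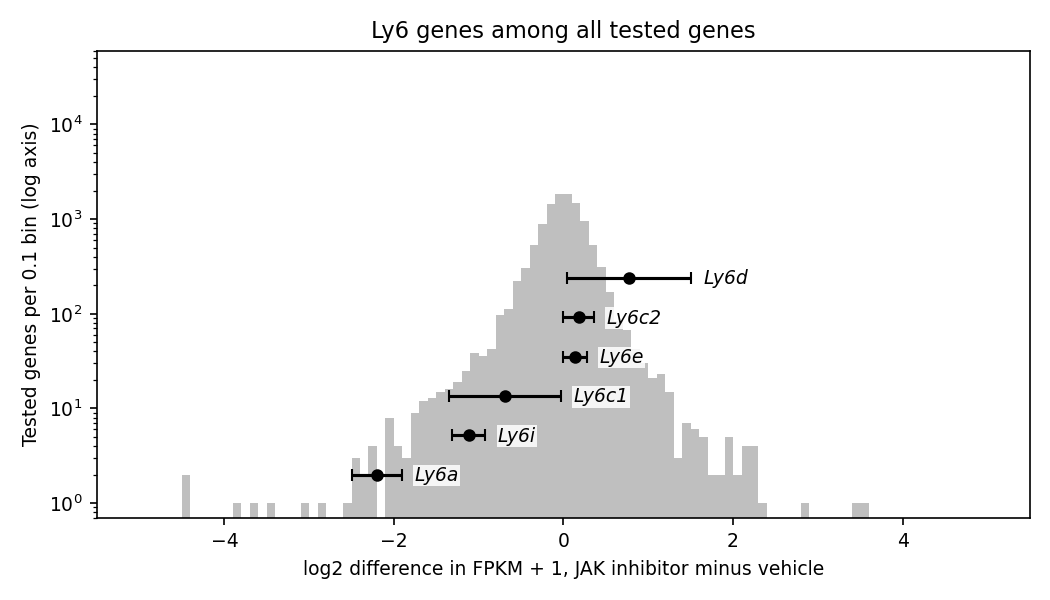
Gray bars count the tested genes in each 0.1 bin of the log2 difference in FPKM + 1, JAKi minus vehicle, on a log axis. Points with bars are the 6 Ly6 genes and their standard errors, stacked for legibility so that only their horizontal place carries a value; *Ly6a* at -2.205 and *Ly6i* at -1.12 lie in the lower tail, and *Ly6c2* (0.18) and *Ly6e* (0.14) lie near 0.

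The genes were next set against *Ly6c2* in the same mouse. *Ly6a* came to 0.153%, 0.121% and 0.0783% of the *Ly6c2* FPKM with JAKi, and to 0.55%, 0.397% and 1.48% with vehicle. The groups did not overlap, and vehicle mouse 3, with the highest *Ly6a* and the lowest *Ly6c2*, had the highest share. The mean share was 0.117% ± 0.0373 (SD, n = 3) with JAKi and 0.809% ± 0.587 (SD, n = 3) with vehicle, 6.89 times as high. On the log2(FPKM + 1) scale, *Ly6a* minus *Ly6c2* differed by -2.38 between the groups (standard error 0.61), and by -1.84 without vehicle mouse 3. Standard errors of differences from *Ly6c2* come from the spread of these mice alone. Those of single genes come from limma, which also draws on the spread of other genes, so the 2 kinds are not comparable. With *Ly6c1* and *Ly6c2* summed, since they share reads, the value was also -2.38; this sum was chosen after seeing the data.

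*Ly6i* came to 0.607%, 0.71% and 0.641% of *Ly6c2* with JAKi and to 2.02%, 1.08% and 1.96% with vehicle, a log2 difference of -1.29 (standard error 0.30). Its groups did not overlap either. *Ly6e*, by contrast, held a nearly fixed share of *Ly6c2*, at 31.1%, 31.5% and 31.3% with JAKi and 31.7%, 29.6% and 35.0% with vehicle. Its log2 difference was -0.03 (standard error 0.07), and the drop of both genes in vehicle mouse 3 left the ratio close to that of the other mice. *Ly6c1* ranged from 0.295% to 1.51% of *Ly6c2*, with overlapping groups. *Ly6i* was 398%, 585% and 818% of *Ly6a* with JAKi and 368%, 273% and 133% with vehicle, so the neighbouring pair did not keep a fixed ratio.

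**Figure D3:**
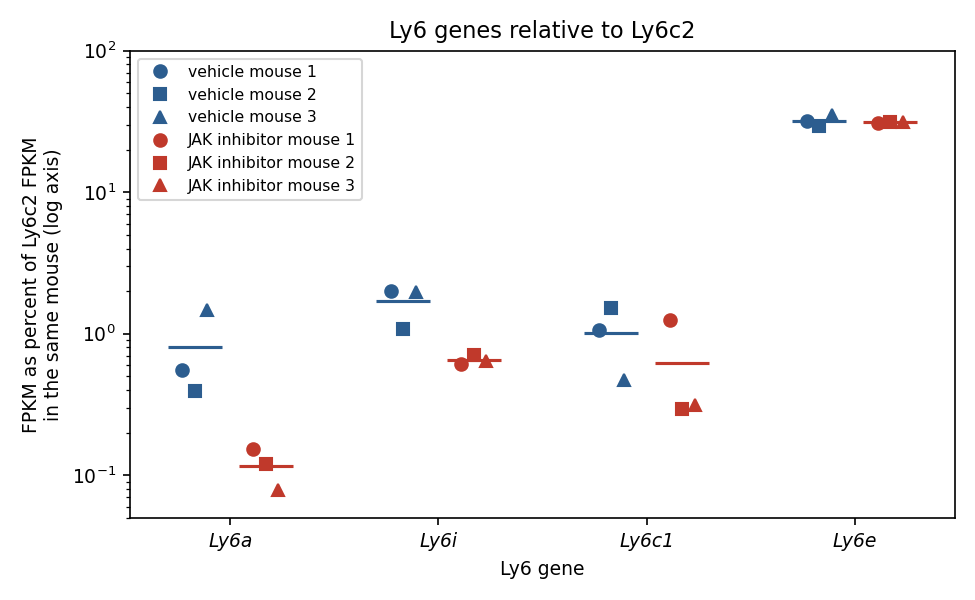
FPKM of 4 Ly6 genes as a percent of *Ly6c2* FPKM in the same mouse, on a log axis, with vehicle in blue, JAK inhibitor in red, symbols for mouse numbers and bars for group means (n = 3). The JAKi points of *Ly6a* (0.0783% to 0.153%) lie below its vehicle points (0.397% to 1.48%), whereas *Ly6e* stays between 29.6% and 35.0% in all mice.

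Likeness across the 6 mice is given as Pearson r of log2(FPKM + 1) and as a description only. The mice of both groups are pooled, so r takes in the group difference by which the members were selected, the points share libraries, and vehicle mouse 3 weighs heavily. For *Ly6c2*, r was 0.99 to *Ly6e*, 0.97 to *Ly6d*, 0.57 to *Ly6c1* and -0.56 to *Ly6a*. For *Ly6a*, r was 0.84 to *Ly6i* and 0.23 to *Ly6c1*. Within the groups, *Ly6a* and *Ly6i* did not peak in the same mouse: *Ly6a* was highest in JAKi mouse 1 and vehicle mouse 3, and *Ly6i* in JAKi mouse 2 and vehicle mouse 1. Among 7735 other genes with a mean of at least 5 FPKM, those most like *Ly6a* included *Eif6*, *Ccdc32*, *Ppa1* and *1110008P14Rik*, with r from 0.986 to 0.990. Their differences were smaller than that of *Ly6a*, from -0.76 to -0.32 on the log2 scale. The genes most like *Ly6c2* were *Oaz1-ps*, *Dynlt1b*, *Anxa5*, *Spc25* and *Ccne2*, with r from 0.992 to 0.997. These 5 genes were also lowest in vehicle mouse 3, for example *Anxa5* at 316 FPKM against 422 to 440 FPKM elsewhere.

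**Figure D4:**
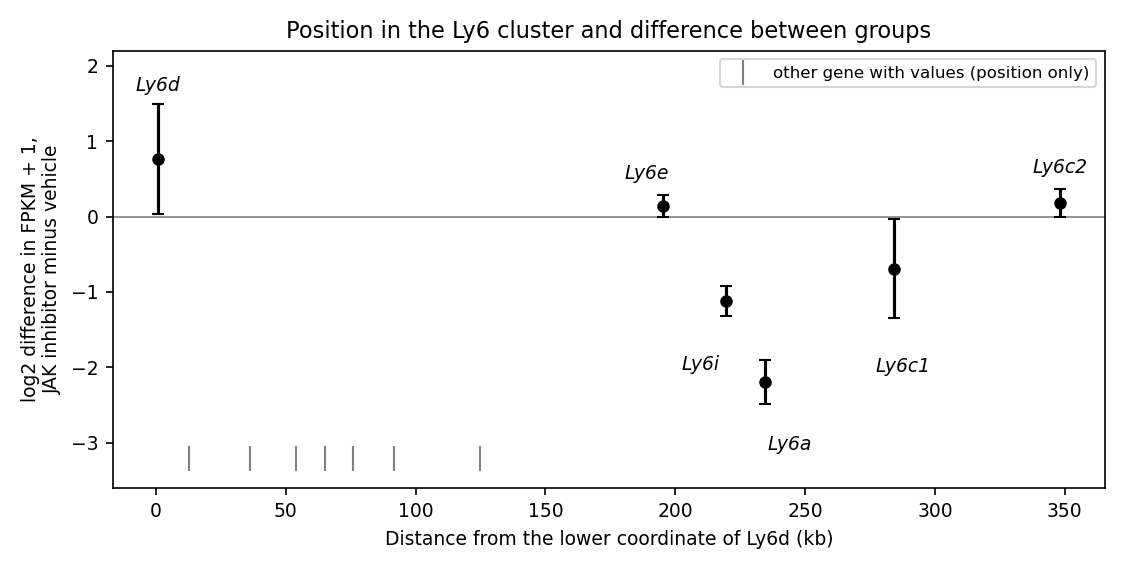
Log2 difference in FPKM + 1, JAKi minus vehicle, with its standard error, against the distance in kb from the lower coordinate of *Ly6d* on chromosome 15; ticks at the bottom mark the 7 other genes with values. The 2 genes with the most negative values, *Ly6i* (-1.12) and *Ly6a* (-2.205), are neighbours, with *Ly6e* (0.14) on one side and *Ly6c1* (-0.69) on the other.

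The other genes of the Ly6 and urokinase receptor family were mostly silent in these cells. Of 33 listed, 31 were found, and 26 of these stayed under 1 FPKM in every mouse, 19 of them listed at 0 in all 6. Among the 5 tested, none passed the adjusted threshold. *Plaur*, the urokinase receptor of activated monocytes and the most abundant of them, had 109, 114 and 125 FPKM with JAKi and 128, 130 and 108 FPKM with vehicle. Its groups overlapped, with a log2 difference of -0.07 (standard error 0.10, adjusted p = 0.773 in limma, over every tested gene). *Lypd6b* was the only one whose groups did not overlap, with JAKi wholly above vehicle as for 9.92% of all tested genes, at 2.68, 1.94 and 1.37 FPKM with JAKi and 0.435, 0.19 and 1.04 FPKM with vehicle (0.96, standard error 0.28, adjusted p = 0.157), and the only one at an unadjusted p under 0.05, which 6.57% of all tested genes reached on the higher side. *Ly6k*, in the cluster, had 0.225, 0.813 and 2.505 FPKM with JAKi and 0.481, 0.135 and 0.271 FPKM with vehicle, with overlapping groups (adjusted p = 0.456). *Ly6g5b* and *Cd59a*, a gene of the complement regulator CD59, averaged under 2 FPKM in both groups.

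The anchor that most Ly6 proteins need is built in the endoplasmic reticulum by the Pig enzymes and remodelled afterwards. Of 26 tested genes of this list, none passed the adjusted threshold, 1 was lower and 3 were higher at an unadjusted p under 0.05, where 9.4% of all tested genes were lower and 6.57% higher. The median log2 difference of the list was -0.01. *Piga*, the catalytic subunit of the first step, had 5.42, 5.66 and 4.69 FPKM with JAKi and 7.97, 6.44 and 11.9 FPKM with vehicle (-0.61, standard error 0.21, adjusted p = 0.21 in limma). Of its partners in the same enzyme, *Pigc* and *Pigh* were on the other side, with differences of 0.41 and 0.54 (adjusted p = 0.157 for both). *Pigp*, *Pigq* and *Dpm2* of that enzyme had 0.02, 0.15 and -0.06, with overlapping groups. *Mppe1*, which trims the anchor before export, had 0.34 (adjusted p = 0.282). The summed FPKM of the list was 649 to 671 with JAKi and 665 to 678 with vehicle.

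Since *Ly6a* is known as an interferon-responsive gene, a list of 39 interferon targets that leaves out the Ly6 genes was counted. Of 31 tested, 23 had a negative and 8 a positive difference, with a median of -0.27 on the log2 scale against -0.004 over all tested genes. One gene, *Oas1a*, a sensor enzyme of viral double-stranded RNA, fell at the adjusted threshold, from 8.31, 9.02 and 10.6 FPKM with vehicle to 3.02, 4.04 and 2.63 FPKM with JAKi (-1.29, standard error 0.18, adjusted p = 0.0359 in limma). Without adjustment, p was under 0.05 for 11 genes lower and none higher, beside 9.4% and 6.57% of all tested genes. *Rtp4*, *Ifit1* and *Ifit3*, among these 11, reached an FPKM of 1 in vehicle mice only. They were thus tested through the group where they were higher, as was *Oas3* among the 23. The counts of this list are therefore given as a description. Wholly below vehicle lay 8 genes and wholly above it 1, *Gbp3*, beside 12.1% and 9.92% of all tested genes. *Rtp4* had 0.424, 0.521 and 0.642 FPKM with JAKi and 4.159, 3.195 and 2.198 FPKM with vehicle (-1.43, standard error 0.23, adjusted p = 0.0665). *Gbp2*, an interferon-induced GTPase, had -0.83 (adjusted p = 0.122, and 0.0479 without vehicle mouse 2), and *Ddx58*, which encodes the RNA sensor RIG-I, had -0.63 (adjusted p = 0.157). The most abundant gene of the list, the immunoproteasome subunit *Psmb8*, had 483 ± 16.7 FPKM (SD, n = 3) with JAKi and 480 ± 49.6 (SD, n = 3) with vehicle, so the list did not move as one. Without vehicle mouse 3, a choice made after seeing the data, 13 genes were on the lower side at an unadjusted p under 0.05. In that fit, 904 of all 11130 tested genes were on that side, and the median of the list was -0.38. *Rtp4* passed the adjusted threshold there (adjusted p = 0.0208). *Oas1a* lost its call without any one of the JAKi mice or without vehicle mouse 1, with an adjusted p of 0.059 to 0.152.

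**Figure D5:**
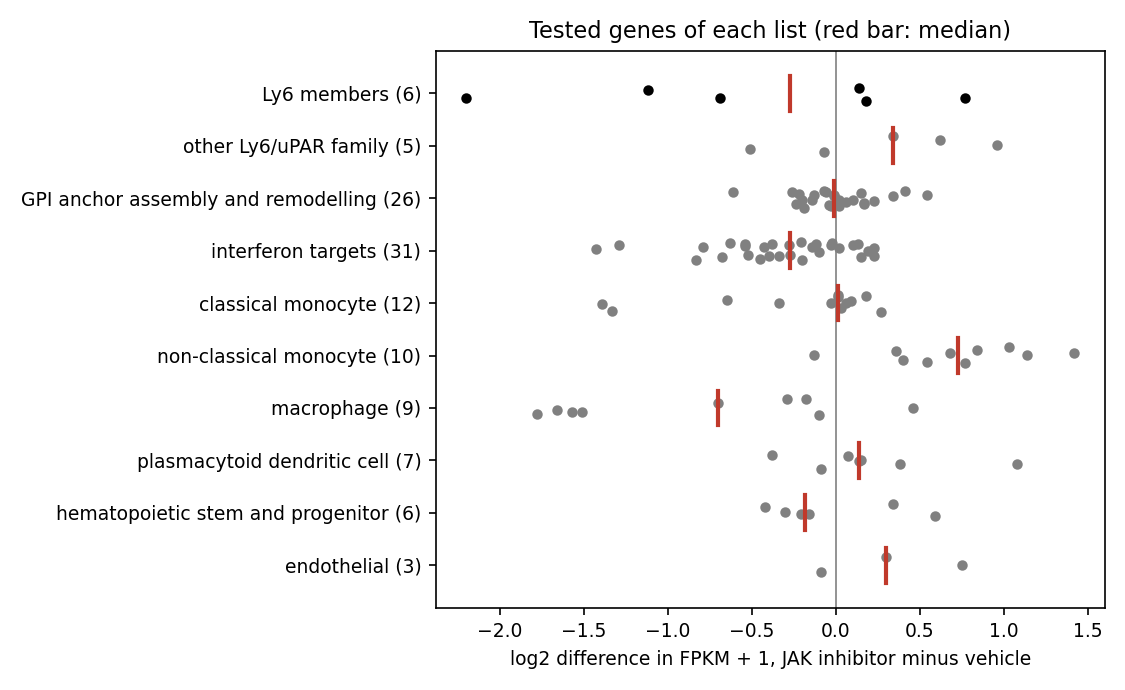
Log2 difference in FPKM + 1, JAKi minus vehicle, of each tested gene of 10 lists, with the number of genes in brackets and the list median as a red bar; the Ly6 genes are black. The interferon targets have a median of -0.27 with 23 of 31 genes below 0, the anchor genes center on -0.01, and the macrophage and non-classical monocyte lists lie at -0.70 and 0.72.

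Markers of cells that could carry these Ly6 proteins were set beside the members, and their part in the results was not tested. For *Ly6c2*, the 12 classical monocyte markers had a median log2 difference of 0.01, with 4 lower and none higher at an unadjusted p under 0.05, beside 9.4% and 6.57% of all tested genes. *Chil3*, which encodes a secreted chitinase-like protein of monocytes, fell from 9900 ± 930 to 3810 ± 775 FPKM (SD, n = 3; -1.39, standard error 0.16, adjusted p = 0.0189 in limma). *Vcan* and *Fn1*, which encode matrix proteins, had -1.33 and -0.65 (adjusted p = 0.122 and 0.191), and the integrin gene *Itgam* had -0.34 (adjusted p = 0.282). *Plac8*, also abundant in monocytes, had 1940 ± 183 FPKM with JAKi and 1710 ± 238 with vehicle. *Chil3* missed the threshold without JAKi mouse 1 or 3 (adjusted p = 0.0713 and 0.0744). Thus genes of the same list lay on both sides of 0 beside a *Ly6c2* with overlapping groups.

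For *Ly6a*, markers of blood stem and progenitor cells and of endothelium were counted, since both are known to carry Sca-1. Of the 10 stem and progenitor markers, *Hlf*, *Procr* and *Mecom* were among those that stayed under 1 FPKM in every mouse, and the summed level was 91.8 to 111 FPKM with JAKi and 79.8 to 109 FPKM with vehicle. Of the 6 tested, 1 was lower and 1 higher at an unadjusted p under 0.05, beside 9.4% and 6.57% of all tested genes. The list median was -0.18. *Hlf*, too low to be tested, had 0.174, 0.12 and 0.201 FPKM with JAKi and 0.242, 0.26 and 0.615 FPKM with vehicle, without overlap. *Meis1* lay wholly below vehicle, as did 12.1% of all tested genes. It had 3.31 ± 0.351 FPKM with JAKi and 4.75 ± 0.133 with vehicle (adjusted p = 0.238 in limma). *Cd34* had 41.9 ± 4.38 and 28.8 ± 11.6 (SD, n = 3 throughout, adjusted p = 0.267). It passed the threshold in 1 of 14 alternative fits, without vehicle mouse 2 (adjusted p = 0.0368). Of the 10 endothelial markers, 7 stayed under 1 FPKM in every mouse, among them the defining *Cdh5*, *Kdr* and *Tek*, and the sum was 32.8 to 42.7 FPKM with JAKi and 18.8 to 37.7 FPKM with vehicle. *Pecam1*, which myeloid cells also carry, made up most of it, at 30.1 ± 4.81 and 18.3 ± 8.01 FPKM (0.75, adjusted p = 0.215). Of the 8 mesenchymal stromal markers, 7 stayed under 1 FPKM and *Pdgfra* and *Dcn* were listed at 0, with sums of 1.61 to 3.13 FPKM against 0.791 to 1.73 FPKM.

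T and NK cells can also carry Sca-1. Of the 12 T and NK markers, *Cd3e* and *Cd8a* stayed under 1 FPKM, and the sum was 495 to 580 FPKM with JAKi and 211 to 379 FPKM with vehicle, most of it *Nkg7* at 515 ± 36.7 and 286 ± 105 FPKM (0.92, adjusted p = 0.147). The sum thus mainly follows *Nkg7*. Of the 10 tested T and NK genes, 6 had a negative and 4 a positive difference, with a median of -0.15. *Gzma* had 4.62 FPKM with JAKi and 17.3 FPKM with vehicle on average. At an unadjusted p under 0.05, *Gzma* and *Thy1* were lower and *Nkg7* higher, beside 9.4% and 6.57% of all tested genes. Of the 9 tested macrophage genes, 4 were lower and none higher at an unadjusted p under 0.05, beside 9.4% and 6.57% of all tested genes. Their median was -0.70, with sums of 139 to 234 FPKM with JAKi against 254 to 435 FPKM with vehicle, which did not overlap. The complement genes *C1qb*, *C1qa* and *C1qc* had -1.78, -1.66 and -1.51 (adjusted p = 0.0721, 0.122 and 0.154), and *Mertk*, a receptor for dying cells, had -1.57 (adjusted p = 0.158). Without vehicle mouse 3, *C1qb* and *C1qa* passed the adjusted threshold (adjusted p = 0.00909 and 0.024), as did *Nkg7* (adjusted p = 0.0278). *Adgre1*, the F4/80 antigen, averaged 70.7 FPKM with JAKi and 76.7 FPKM with vehicle.

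For *Ly6d*, the B-lineage and plasmacytoid dendritic cell lists were counted. None of the 4 tested B-lineage genes and none of the 7 tested plasmacytoid genes had an unadjusted p under 0.05. *Cd79b* made up most of the B-lineage sum, at 26.7 FPKM in vehicle mouse 3, its lowest, and 28.0 to 35.4 FPKM in the other mice. The plasmacytoid sum was 37.7 to 45.4 FPKM with JAKi and 12.7 to 51.9 FPKM with vehicle, lowest in vehicle mouse 3. *Siglech*, a receptor of these cells, had 6.17, 7.45 and 9.62 FPKM with JAKi and 13.9, 15.4 and 2.18 FPKM with vehicle. *Cox6a2* had 15.1, 19.8 and 18.2 FPKM with JAKi and 11.0, 16.5 and 2.245 FPKM with vehicle. Both were lowest in the same mouse as *Ly6d*. Without that mouse, 2 plasmacytoid genes were lower at an unadjusted p under 0.05, as were 904 of all 11130 tested genes. The median of the plasmacytoid list went from 0.14 to -0.17.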

How the data were processed

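RNA-Seq of EGFP+ osteoclast precursors was analyzed in 3 JAKi-treated and 3 vehicle-treated mice. Each mouse has a table of FPKM for 24346 gene symbols, as deposited by the authors. Per the labels, TopHat2 2.0.13, Bowtie2 2.2.3, SAMtools 0.1.19, Cufflinks 2.2.1 and mm10 were used, in roles and with an annotation not given in the sources used here. The study's methods give 75-base single-end reads, a TruSeq Stranded kit and iDEP 94, whereas the labels name SMART-Seq HT and Nextera kits, so strandedness is unsure. How Cufflinks shares reads between near copies bears on *Ly6c1* and *Ly6c2*. Depth is unknown, so intervals from counts are not given.

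A gene was tested if any mouse reached an FPKM of 1, which kept 11301 genes. Their log2(FPKM + 1) values were compared by limma 3.58.1 under R 4.3.3, using group as the only term, trended empirical Bayes and 2-sided p-values with Benjamini-Hochberg adjustment over the whole table. Fold changes on this scale understate those of low genes. The script was tested on simulated data. The members and gene lists were chosen with earlier results of these data known. Named genes are the members, list genes past the adjusted threshold, up to 4 per list with the smallest p under 0.05, up to 3 of highest mean in the family and marker lists, cluster genes reaching FPKM 1, and the 5 genes most like *Ly6a* and *Ly6c2*; *Psmb8*, *Cd59a*, *Cx3cr1* and genes named for being near 0 were chosen after their values were seen. Alternatives were a pseudocount of 0.1, other filters and scalings, no trend, sample weights, a replicate block and leaving out single mice. Some genes are not reported here. Sequences came from GENCODE M21 and RefSeq. Tables used Python 3.11.15, pandas 2.3.3, NumPy 2.4.6, Biopython 1.88 and matplotlib 3.10.9.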

Additional observations from a re-analysis of the deposited data

How the results depend on the processing

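*Ly6a* and *Ly6i*, and no other member, lay wholly below vehicle also after quantile normalization and after median-ratio scaling, the alternatives that could reorder the mice; the rest could not make these groups overlap. The *Ly6a* minus *Ly6c2* difference kept its sign, from -2.77 without vehicle mouse 2 to -1.84 without vehicle mouse 3. The log2 difference of *Ly6a* ran from -2.46 to -1.90, but its call was lost in 6 of 14 alternatives: with no filter on low values, without the trend, and without JAKi mouse 1, 2 or 3 or vehicle mouse 1. *Ly6i* passed the threshold in 4, with sample weights and without each vehicle mouse. Both genes were chosen by this contrast, so nothing is read from their calls. The number of genes that differed, 15, depended on the filter, the model and single mice: 2 with no filter, 2 without the trend, 34 with an FPKM of at least 1 in 3 samples, 63 with sample weights, 67 with the replicate block, and from 3 to 95 with each mouse left out. The count was 5, 6 and 3 without JAKi mouse 1, 2 and 3, 19 without vehicle mouse 1, 95 without vehicle mouse 2 and 94 without vehicle mouse 3. The cause was not tested. Same-numbered mice did not deviate together over all genes (r = 0.016, 0.054 and 0.00), so no pairing by number was seen. A pairing that acts on few genes was not tested. The block changed no call among the members, although it raised the number of genes that differed from 15 to 67. *Oas1a* kept its call in 8 and *Chil3* in 10 of 14 alternatives, a count over list genes that was added after seeing the data. Only a chosen part of the list genes was followed through the alternatives, and those of them not called in the main fit stayed uncalled in most. *C1qb* passed in 4 of 14, *Rtp4*, *C1qa* and *Camp* in 3, and *Mmp8* in 2. *Vcan*, *Gbp2*, *Cd34*, *Nkg7*, *Elane*, *Itgal*, *Nr4a1* and *Car1* each passed in 1. With 3 mice a group and *Ly6c1* sharing reads with *Ly6c2*, differences of the size of those of *Ly6c1*, *Ly6d* and *Ly6e* were not resolved.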

Other observations

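Of the 10 non-classical monocyte markers, 7 were higher and none lower at an unadjusted p under 0.05 (6.57% and 9.4% of all tested genes), none at the adjusted threshold, with a median log2 difference of 0.72. *Itgal* and *Spn*, adhesion genes of patrolling monocytes, had 0.77 and 0.54 (adjusted p = 0.113 and 0.158 in limma), the transcription factor gene *Nr4a1* had 1.14 (adjusted p = 0.159, and 0.0165 without vehicle mouse 1) and *Ear2* had 0.68 (adjusted p = 0.164). *Cx3cr1* itself had 0.36 (adjusted p = 0.512), with overlapping groups. Without vehicle mouse 3 the median was 0.51, and *Itgal* passed the adjusted threshold (adjusted p = 0.0449).

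Of the 12 neutrophil markers, 3 were lower and 3 higher at an unadjusted p under 0.05, beside 9.4% and 6.57% of all tested genes. The granule genes on the higher side were *Camp* at 1.64, *Elane* at 1.12 and *Mpo* at 0.93 (adjusted p = 0.0781, 0.136 and 0.182), and *Mmp8*, a granule collagenase, had -1.06 (adjusted p = 0.109). Without vehicle mouse 3, *Elane* and *Mmp8* passed the adjusted threshold (adjusted p = 0.0101 and 0.0455), and *Camp* did so without vehicle mouse 2 (adjusted p = 0.0499) or JAKi mouse 2 (adjusted p = 0.0448). Of the 6 tested erythroid genes, 3 lay wholly above vehicle, as did 9.92% of all tested genes: *Klf1* had 1.25, *Car1* 2.30 and *Hba-a1* 2.86 (adjusted p = 0.147, 0.196 and 0.159), the last at 38.6 FPKM in JAKi mouse 3 and at most 2.64 FPKM in any other mouse. *Hba-a1* reached an FPKM of 1 in JAKi mice only, so it was tested through the group where it was higher. *Car1* passed without vehicle mouse 3 (adjusted p = 0.0229). Other abundant genes of the marker lists averaged, with JAKi and vehicle, 152 and 170 FPKM for *Fcgr4*, 153 and 121 FPKM for *Treml4*, 22.3 and 26.2 FPKM for *Flt3*, 16.4 and 17.5 FPKM for *Gata2*, 25.4 and 22.1 FPKM for *Car2*, 6.36 and 6.12 FPKM for *Tcf4* and 7.74 and 8.27 FPKM for *Egfl7*. *Lck*, *Igll1*, *Vpreb1*, *Vwf*, *Pdgfrb*, *Bglap* and *Lepr* averaged under 3 FPKM in both groups.

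The genes most like *Ly6i* over the 6 mice, chosen after their values were seen, were *Erh*, *Psmd6*, *Zfand2b*, *Psmd13* and *Smpdl3b* (Pearson r = 0.971 to 0.988), of which *Psmd6* and *Psmd13* encode proteasome subunits. Those most like *Ly6d* were *Rangap1*, *Ppp4c*, *Spc24*, *Alg8* and *Bfar* (r = 0.984 to 0.994), each lowest in vehicle mouse 3.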
